A study of Mus musculus with 12 samples.

Results

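The genes described here are 9 central members of the Hedgehog pathway, chosen by name from the 23420 genes listed in the count tables of 2 mouse lines: the ligands *Shh*, *Ihh* and *Dhh*, the receptors and inhibitor *Ptch1* and *Hhip*, the signal transducer *Smo* and the transcription factors *Gli1*, *Gli2* and *Gli3*. All 9 were found in both tables and all 9 passed the filter on low counts in every comparison. Whole embryos were collected at E12.5, and their polyadenylated RNA was sequenced, with 3 libraries in each of 4 groups. In the *Carm1* line, of strain C57BL/6, embryos homozygous for the null allele *Carm1*tm1Mtb (*Carm1* KO/KO) were set against wild-type embryos. In the *Pax3* line, kept on a background labelled mixed, embryos homozygous for the Splotch allele Sp2H, labelled *Pax3* null (*Pax3* Sp2H/Sp2H), were set against their own wild types. Both mutants came from crosses between heterozygous parents and carry a germline allele, so a difference may lie anywhere in the embryo. The *Pax3* line was included to ask whether the loss of *Carm1*, an arginine methyltransferase and coactivator, changes transcripts in the way that loss of the transcription factor *Pax3* does.

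Hedgehog ligands are secreted, lipid-modified proteins that carry signals between neighbouring tissues. Without ligand, the receptor Ptch1 holds Smo inactive at the primary cilium and Gli3, with part of Gli2, is cut into a repressor. Ligand binding releases Smo, Gli2 and Gli3 stay in their activating form, and *Gli1*, *Ptch1* and *Hhip* are transcribed, so that these 3 genes serve as common readouts of the pathway. In the midgestation embryo *Shh* is made by the notochord, floor plate, gut endoderm and posterior limb bud, *Ihh* by maturing cartilage and some gut endoderm, and *Dhh* by Schwann cell precursors, endothelium and Sertoli cells of the fetal testis.

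Total counts per library lay between 17183344 and 23518692. *Carm1* itself in *Carm1* KO/KO embryos fell by 0.998 on the log2 scale (edgeR FDR adjusted *P* = 1.23e-15), and *Pax3* in *Pax3* Sp2H/Sp2H embryos fell by 0.43 (edgeR FDR adjusted *P* = 0.00142), with no overlap between mutant and wild-type libraries in either case. Counts on Y-linked genes of at least 4447 marked 4 libraries (*Carm1* line wild type 3, *Pax3* line wild types 2 and 3 and *Pax3* Sp2H/Sp2H 3), and the other 8 held at most 23. Transcripts of liver, blood, heart, skeletal muscle, brain, mesenchyme and surface epithelium were all present. Many of these 12 check genes also moved: 9 were called in the *Carm1* line, 8 of them lower in *Carm1* KO/KO, among them the liver genes *Alb* (log2 fold change -1.41) and *Afp* (-0.66), *Krt5* of surface epithelium (-0.62), *Tnnt2* of heart (-0.51) and *Myh3* of skeletal muscle (-0.51), with *Sox2* of the nervous system higher (0.33). In the *Pax3* line 5 were called, 2 higher and 3 lower, with *Myog* and *Myh3* of skeletal muscle at -1.09 and -1.03. Of all genes tested, 13.3% were called in the *Carm1* line and 24.5% in the *Pax3* line. The part of the check genes in the differences of the Hedgehog genes was not tested.

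The RefSeq promoter windows of *Ihh*, *Smo* and *Gli3*, 3 of the 5 members that differed between mutant and wild type in either line, are given first, each from 250 bases before to 50 bases after the annotated start on GRCm38.p6, written 5′ to 3′ on the strand of the gene, as the sequence around an annotated start of each changed gene. Capitals mark GC boxes, the letters GGGCGG on either strand. RefSeq windows were at hand for 7 of the 9 members, and *Shh* and *Gli1* are named without one. The windows lie for *Ihh* at chr1:74951623-74951922 on the minus strand, for *Smo* at chr6:29735247-29735546 on the plus strand and for *Gli3* at chr13:15463473-15463772 on the plus strand.
Ihh: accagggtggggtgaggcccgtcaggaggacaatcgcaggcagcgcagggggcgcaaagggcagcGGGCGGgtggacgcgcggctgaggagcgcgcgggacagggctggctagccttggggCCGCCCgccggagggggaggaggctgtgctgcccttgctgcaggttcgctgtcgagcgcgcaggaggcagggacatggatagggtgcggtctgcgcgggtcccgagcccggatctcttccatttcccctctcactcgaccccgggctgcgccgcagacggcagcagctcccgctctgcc
Smo: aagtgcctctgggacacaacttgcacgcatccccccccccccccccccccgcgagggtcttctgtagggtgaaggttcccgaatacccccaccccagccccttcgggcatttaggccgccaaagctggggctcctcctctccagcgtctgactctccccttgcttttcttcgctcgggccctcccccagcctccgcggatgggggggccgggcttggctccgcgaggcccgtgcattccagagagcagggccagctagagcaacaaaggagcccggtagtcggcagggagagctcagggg
Gli3: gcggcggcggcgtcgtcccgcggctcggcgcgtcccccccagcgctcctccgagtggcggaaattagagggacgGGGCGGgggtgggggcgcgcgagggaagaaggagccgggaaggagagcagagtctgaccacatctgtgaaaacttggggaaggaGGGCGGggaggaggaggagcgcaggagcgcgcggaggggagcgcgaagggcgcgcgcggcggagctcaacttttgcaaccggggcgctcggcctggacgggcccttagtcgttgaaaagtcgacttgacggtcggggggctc
GC boxes were found in 6 of the 7 windows, with none in *Smo*, against 35.7% of all 32851 windows of the same length. The letters GACCACCCA, a site bound by Gli proteins, were in 0 of the 7 windows on either strand and in 0.253% of all windows, and TATAAA was in 0 of the 7 against 13.6%. The *Ihh*, *Smo* and *Gli3* windows held 72.7%, 67.7% and 71.0% G and C, against a median of 52.7% over all windows. Matching letters are a description of the sequence only.

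Set per kilobase of exon, so that genes can be compared with each other, the signal transducer and the Gli factors stood above the ligands in all 4 groups. *Smo* had the highest level, at 31.4 ± 0.188 CPM (counts scaled to library size) per kb in wild-type embryos of the *Carm1* line (SD, n = 3 here and below) and 37.4 ± 2.42 in those of the *Pax3* line. *Gli3* followed at 15.7 ± 0.776 and 16.9 ± 0.0102 CPM per kb, then *Gli1* at 11.6 ± 0.684 and 13.0 ± 1.11 and *Gli2* at 11.6 ± 0.782 and 14.4 ± 0.803. The libraries of *Gli1* and *Gli2* overlapped in 3 of the groups, with *Pax3* Sp2H/Sp2H as the exception, and no other pair of neighbours in the order overlapped in any group. *Ptch1* had 6.67 ± 0.610 and 8.01 ± 0.320 CPM per kb, *Shh* 3.14 ± 0.277 and 5.01 ± 0.381, and *Hhip* 1.55 ± 0.179 and 1.35 ± 0.177. *Ihh* and *Dhh* were the lowest members, at 0.863 ± 0.0706 and 0.402 ± 0.125 CPM per kb in the *Carm1* line wild types and 0.485 ± 0.136 and 0.209 ± 0.0897 in those of the *Pax3* line. The order of the 9 was the same in both wild types apart from *Gli1* and *Gli2*, and in *Pax3* Sp2H/Sp2H embryos *Gli1*, at 16.3 ± 0.755, stood above *Gli3*, at 15.01 ± 0.408. Since lengths are those of all annotated exons joined, the level of a gene depends on which exons are annotated, and exon use was not measured.

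**Figure D1:**
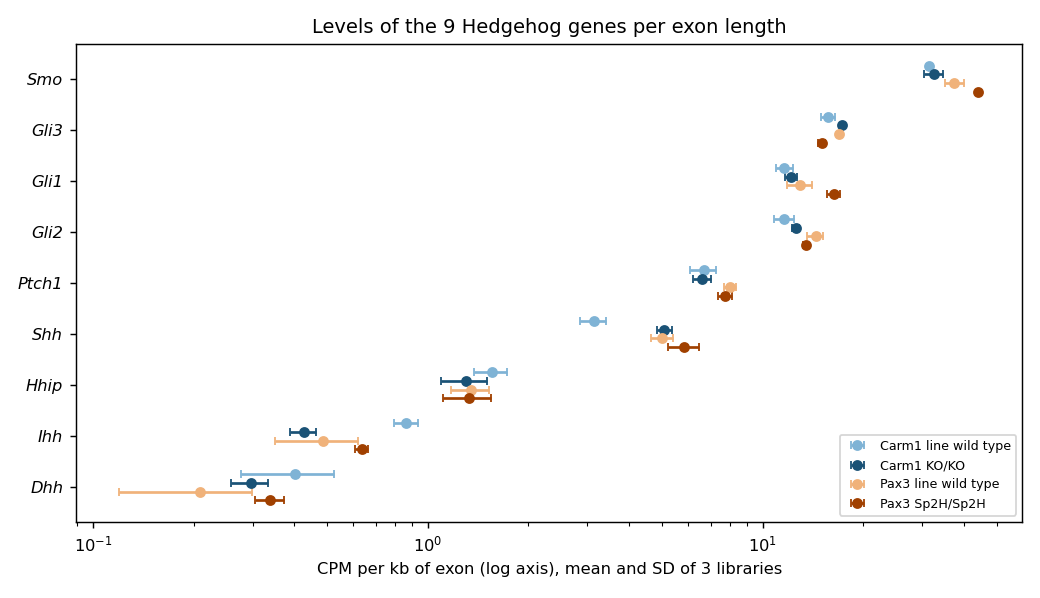
Level of each of the 9 genes as CPM per kb of exon on a log axis, with points for the mean and bars for the SD of 3 libraries in each of 4 groups. *Smo* stands highest in every group, from 31.4 to 44.1 CPM per kb, and *Dhh* lowest, from 0.209 to 0.402.

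In the *Carm1* line the question was which Hedgehog genes change when *Carm1* is lost. *Shh* rose and *Ihh* fell in *Carm1* KO/KO embryos, each by more than the spread between libraries, while the receptors, *Smo* and the Gli factors did not pass the test. These 2 calls among 9 members stand against 13.3% of the 15811 genes tested (5.49% higher and 7.83% lower in *Carm1* KO/KO), and with so few members a count of 2 is near that share. The libraries of mutant and wild type did not overlap for 3 members, *Shh*, *Ihh* and *Gli3*, against 30% of all genes tested. The median log2 fold change of the 9 members was 0.05, with 5 above 0 and 4 below it, and that of all genes tested was 0.00136.

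*Shh*, the ligand that patterns the ventral neural tube and the limb, lies on chromosome 5 from 28456815 to 28467256 on the minus strand of GRCm38. It had 8.24, 8.47 and 9.70 CPM in the 3 wild-type libraries of the *Carm1* line and 13.6, 15.1 and 14.3 CPM in the 3 *Carm1* KO/KO libraries, with 139 to 269 counts behind each value. Every *Carm1* KO/KO library lay above every wild-type library. The log2 fold change was 0.70 (standard error 0.108, edgeR FDR adjusted *P* = 2.39e-05), a fold of 1.62 with a 95% interval from 1.39 to 1.89. *Scube2*, which codes for a secreted protein that helps release lipid-modified Shh from cells, also rose, by 0.68 on the log2 scale (edgeR FDR adjusted *P* = 7.15e-04). Among the markers of notochord and floor plate, 3 of 10 tested rose (*Spon1* by 0.24, *Ntn1* by 0.17 and *Lmx1a* by 0.71 on the log2 scale) and none fell. The summed level of that list was 341 to 347 CPM in *Carm1* KO/KO and 303 to 316 CPM in wild-type embryos. Most of that sum came from *Ntn1* (mean 146 CPM in *Carm1* KO/KO and 130 in wild type) and *Spon1* (86.6 and 73.2 CPM). The sum therefore says little of the other markers, and of the 10 tested 6 lay above 0 and 4 below it. *Noto* was at 0 in 11 of the 12 libraries of both lines. The part of this list in the difference of *Shh* was not tested, and in whole embryos more *Shh* per cell and more cells that make it cannot be told apart. Endoderm markers summed to 178 to 205 CPM in *Carm1* KO/KO and 171 to 200 CPM in wild type, overlapping, with 1 of 11 called (*Shroom3*, higher), and limb bud markers to 324 to 341 and 307 to 322 CPM, with 2 of 13 called, both higher. Calls in these marker lists stand against 13.3% of all genes tested in this line. An annotated antisense gene, 9530036O11Rik, shares 446 bases with the exons of *Shh* and held at most 8 counts in any library.

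*Ihh*, which is made by cartilage cells that leave the cell cycle and is needed for growth of the skeleton, lies on chromosome 1 from 74945315 to 74951672 on the minus strand. Its level was 2.79, 2.36 and 2.63 CPM in wild-type and 1.26, 1.40 and 1.18 CPM in *Carm1* KO/KO libraries, on 47 to 55 and 20 to 25 counts. Each mutant library lay below each wild-type library. The log2 fold change was -1.01 (standard error 0.261, edgeR FDR adjusted *P* = 0.00786), a fold of 0.497 with a 95% interval from 0.344 to 0.719, and these few counts make it the least precise of the calls. Cartilage markers were lower beside it: 10 of 14 fell and none rose, against 7.83% called lower among all genes tested. The median log2 fold change over the list was -0.34. *Acan*, the large proteoglycan of cartilage matrix, fell by 0.63 and *Matn4* by 0.74 on the log2 scale, whereas *Sox9*, the factor that sets cartilage fate, and *Col2a1* were not called. The summed level of the list was 1449 to 1487 CPM in *Carm1* KO/KO and 1513 to 1825 CPM in wild-type embryos, which did not overlap, and the part of cartilage in the difference of *Ihh* was not tested.

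**Figure D2:**
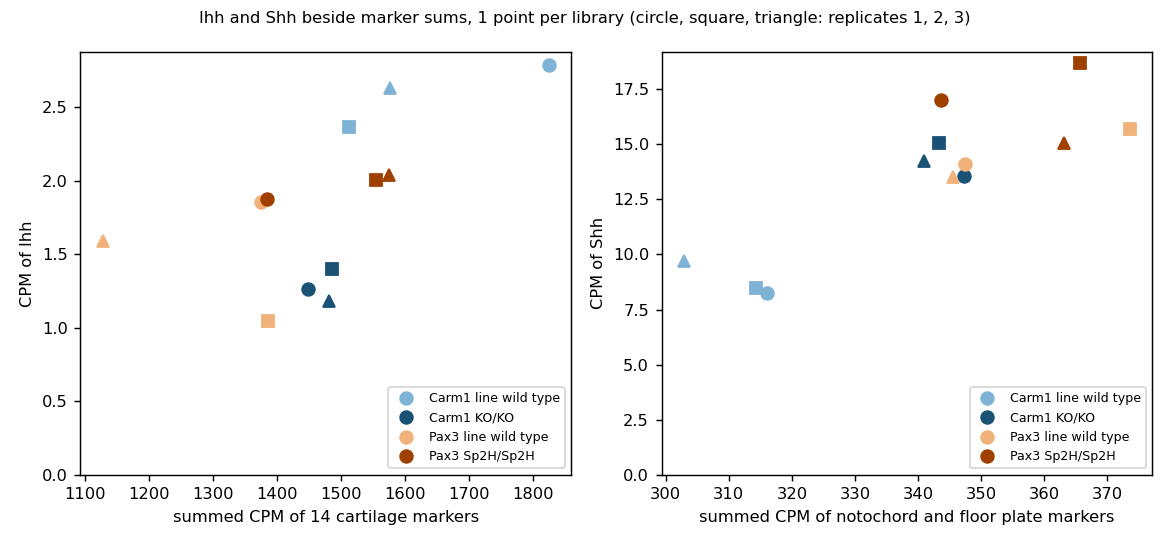
Left, CPM of *Ihh* against the summed CPM of the cartilage markers, and right, CPM of *Shh* against that of the notochord and floor plate markers, with 1 point per library and CPM scaled within each line. The 3 wild-type libraries of the *Carm1* line sit apart at the top of the *Ihh* range (2.36 to 2.79 CPM) and at the bottom of the *Shh* range (8.24 to 9.70 CPM).

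*Dhh*, the ligand of peripheral nerve and testis, on chromosome 15 from 98891152 to 98898540, had 1.13, 2.15 and 1.95 CPM in wild-type and 1.10, 1.34 and 1.41 CPM in *Carm1* KO/KO libraries. The groups overlapped, and the difference was not called (log2 fold change -0.47, 95% interval -1.07 to 0.14, edgeR FDR adjusted *P* = 0.335). It rested on 19 to 50 counts per library, and values up to the ends of that interval are not excluded. Of the Schwann cell precursor markers 1 of 10 was called, *Fabp7*, which was higher, against 13.3% of all genes tested. The list summed to 299 to 313 CPM in *Carm1* KO/KO and 258 to 277 CPM in wild type, with *Fabp7* alone at a mean of 164 and 127 CPM. Of the endothelial markers 4 of 11 were called, *Tek*, *Emcn* and *Egfl7* higher and *Erg* lower. They summed to 435 to 458 CPM in *Carm1* KO/KO and 406.5 to 432 CPM in wild type. The part of either list in the *Dhh* values was not tested. *Dhh* shares 546 bases of exon with *Rhebl1* on the same strand, and reads there cannot be assigned to either gene with certainty. *Rhebl1* held more counts than *Dhh*, 95 to 148 in *Carm1* KO/KO and 117 to 185 in wild-type libraries.

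None of the 3 readouts of pathway activity passed the test. *Ptch1*, the Hedgehog receptor and itself a target of the pathway (chromosome 13, 63508328 to 63573598), had 102.8, 91.1 and 86.2 CPM in wild-type and 85.8, 94.2 and 97.2 CPM in *Carm1* KO/KO libraries, overlapping throughout. Its log2 fold change of -0.01 had a 95% interval from -0.13 to 0.11 (edgeR FDR adjusted *P* = 0.925). *Gli1*, the factor that is transcribed mainly where the pathway is on (chromosome 10, 127329882 to 127341974), had 61.1, 54.7 and 55.9 CPM in wild-type and 56.9, 61.7 and 60.8 CPM in *Carm1* KO/KO libraries. These overlapped as well, with a log2 fold change of 0.07 (95% interval -0.05 to 0.18, edgeR FDR adjusted *P* = 0.502). *Hhip*, a membrane protein that binds and withdraws ligand (chromosome 8, 79965851 to 80058006), had 15.4, 14.02 and 12.2 CPM against 10.04, 13.7 and 11.3 CPM in *Carm1* KO/KO, with a log2 fold change of -0.25 (95% interval -0.48 to -0.02, edgeR FDR adjusted *P* = 0.155). That interval, set for a single gene, leaves out 0, but the value did not pass the adjustment over all genes.

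*Smo*, the receptor-like protein that carries the signal into the cell (chromosome 6, 29735503 to 29761365), had 175, 174 and 173 CPM in wild-type and 174, 172 and 194 CPM in *Carm1* KO/KO libraries. The third mutant library stood above the rest, which lay within a few CPM of each other, and the log2 fold change was 0.05 (95% interval -0.05 to 0.14, edgeR FDR adjusted *P* = 0.578). *Gli2*, the main activator among the Gli proteins (chromosome 1, 118834132 to 119053619), had a log2 fold change of 0.11 (95% interval 0.01 to 0.22, edgeR FDR adjusted *P* = 0.156) on 84.6, 76.8 and 74.5 CPM in wild-type and 87.2, 84.7 and 82.8 CPM in *Carm1* KO/KO libraries. *Gli3*, the main repressor (chromosome 13, 15463235 to 15730026), had 153, 153 and 140.3 CPM in wild-type and 163, 163 and 162 CPM in *Carm1* KO/KO libraries, which did not overlap. At a log2 fold change of 0.13 (95% interval 0.04 to 0.22, edgeR FDR adjusted *P* = 0.0512) it lay just short of the threshold, and 5 of 15 alternatives, among them RLE factors (adjusted *P* = 0.0478 in edgeR) and the fit without wild-type replicate 1 (0.0153), carried it past. Without wild-type replicate 1, 4 members were called in place of 2, with *Gli2* and *Gli3* added as higher.

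**Figure D3:**
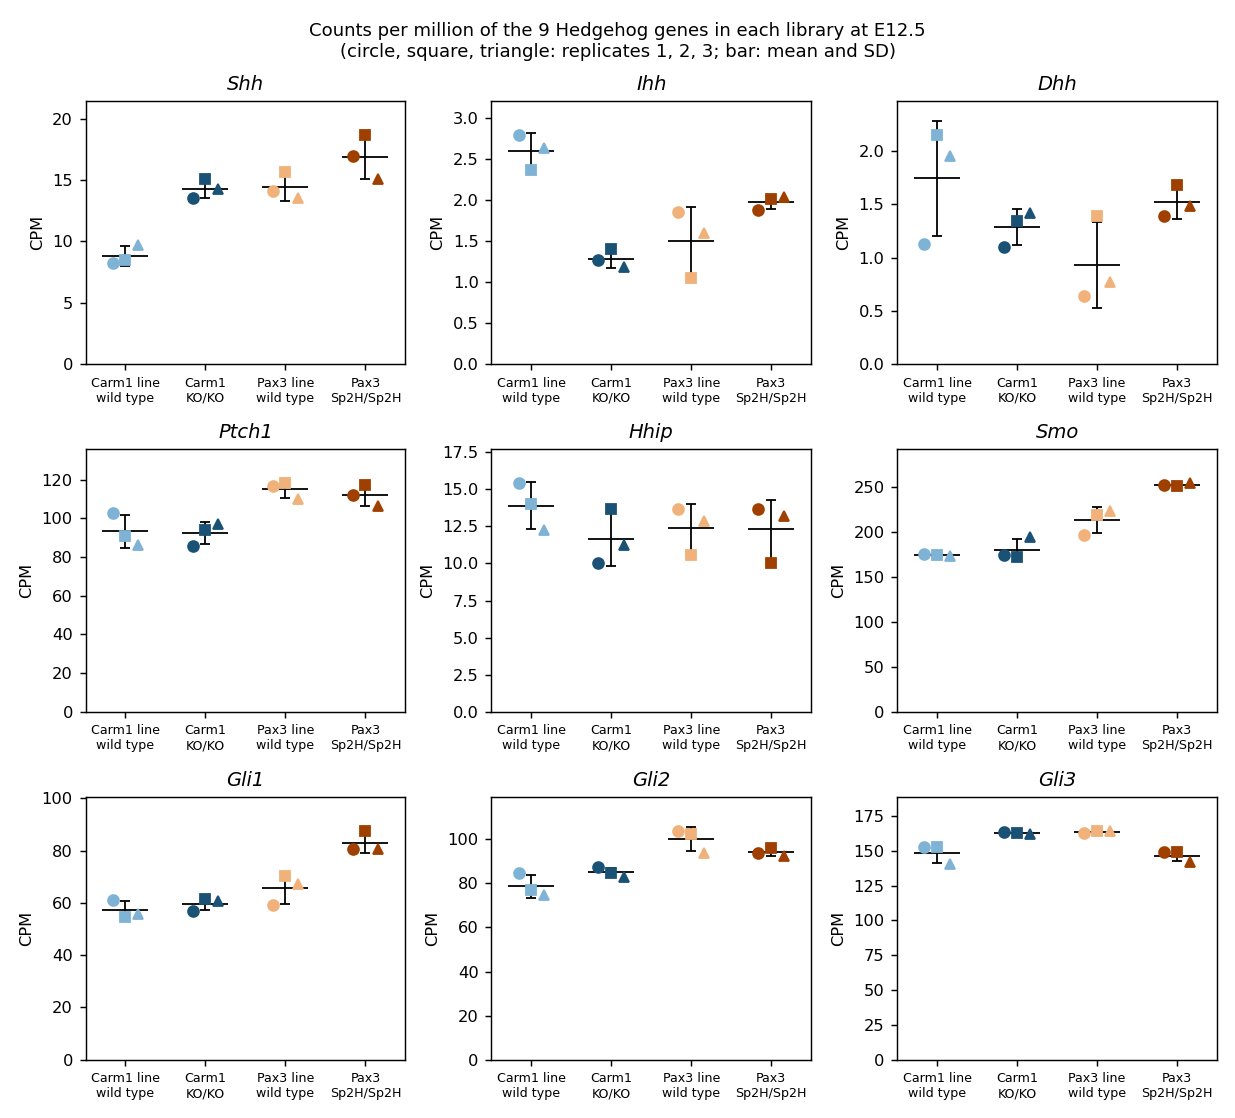
CPM of each of the 9 genes in every library, scaled within each line, with circles, squares and triangles for replicates 1, 2 and 3 and bars for the mean and SD of 3 libraries. *Shh* is lower in the wild types of the *Carm1* line (8.24 to 9.70 CPM) than in any other library, and *Smo* is highest in the 3 *Pax3* Sp2H/Sp2H libraries (251 to 254 CPM).

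Around these members, 58 further genes of the pathway were examined, of which 9 were called in the *Carm1* line, 5 higher and 4 lower, with a median log2 fold change of 0.04. This share is near the 13.3% of all genes tested, and the genes that follow are given as single values. Offsets that model transcript length and GC content in each library raised this to 14, 11 of them higher, and moved the whole table from 868 of 2106 calls higher to 1729 of 3072. Among 12 genes for processing, release and transport of ligand, *Scube2* and *Scube3* rose (0.68 and 0.31) and *Gpc4*, a glypican, fell by 0.22 on the log2 scale. Among 11 receptors and co-receptors, *Lrp2*, an endocytic receptor that takes part in Shh uptake in the forebrain, rose by 0.44 and *Evc*, a ciliary partner of Smo, by 0.30. The co-receptors *Cdon*, *Boc* and *Gas1* had log2 fold changes of -0.11, 0.09 and 0.02, none of them called. Among 35 genes that relay the signal between Smo and Gli, *Fuz*, which is needed to build cilia, rose from 16.7 to 19.6 CPM in wild-type libraries to 27.7 to 29.3 CPM in *Carm1* KO/KO, a log2 fold change of 0.65 (edgeR FDR adjusted *P* = 4.55e-07). *Arrb1* and the kinases *Stk36* and *Prkaca* fell by 0.24, 0.23 and 0.13, and *Sufu*, which holds Gli proteins in the cytoplasm, had a log2 fold change of 0.17 and was not called (edgeR FDR adjusted *P* = 0.0555).

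Of 23 genes known as Hedgehog targets in some tissue, 22 were tested in the *Carm1* line and 4 were called, against 13.3% of all genes tested, with a median log2 fold change of 0.07. The cell cycle gene *Ccnd1* and *Sfrp1*, a secreted Wnt inhibitor, rose by 0.16 and 0.17, and *Pax1*, a factor of the sclerotome, and *Osr2*, a factor of palate and limb, fell by 0.21 and 0.46 on the log2 scale. *Foxf1*, a target in gut mesenchyme, and *Foxa2*, a target in the floor plate, had 0.18 and 0.25 and were not called (edgeR FDR adjusted *P* = 0.223 and 0.418). Without *Carm1* KO/KO replicate 1 the calls fell to 2, and without replicate 2 to 1.

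In the *Pax3* line the same question was asked for the loss of *Pax3*. Here *Gli1* and *Smo* rose and *Gli3* fell in *Pax3* Sp2H/Sp2H embryos, and none of the 3 ligands was called. These 3 calls among 9 members stand against 24.5% of the 15724 genes tested (14% higher and 10.5% lower in *Pax3* Sp2H/Sp2H), a share near that background. Libraries did not overlap for 4 members, *Ihh*, *Smo*, *Gli1* and *Gli3*, against 39.6% of all genes tested. The median log2 fold change was 0.23 over the 9 members and -0.00255 over all genes tested.

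*Gli1* had 59.1, 70.5 and 67.1 CPM in wild-type and 80.6, 87.6 and 80.8 CPM in *Pax3* Sp2H/Sp2H libraries. All mutant libraries lay above all wild-type libraries. The log2 fold change was 0.34 (standard error 0.064, edgeR FDR adjusted *P* = 3.01e-04), a fold of 1.27 with a 95% interval from 1.16 to 1.39, falling to 0.22 once length and GC offsets were fitted (edgeR FDR adjusted *P* = 0.00588). *Gli1* shares 62 bases with *Arhgap9* on the other strand, which held at most 104 counts in any library against at least 1030 for *Gli1*. The other readouts of the pathway did not move with it: *Ptch1* had 117, 118 and 109.8 CPM in wild-type and 112, 117 and 106 CPM in mutant libraries (log2 fold change -0.04, 95% interval -0.15 to 0.08, edgeR FDR adjusted *P* = 0.658), and *Hhip* 13.7, 10.6 and 12.9 against 13.7, 10.02 and 13.2 CPM (-0.01, 95% interval -0.26 to 0.23, adjusted *P* = 0.947). Both overlapped between the groups.

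*Smo* rose from 196, 219 and 223 CPM in wild-type to 252, 251 and 254 CPM in *Pax3* Sp2H/Sp2H libraries. The mutant libraries lay close together and above all wild types. The log2 fold change was 0.25 (standard error 0.055, edgeR FDR adjusted *P* = 0.00179), a fold of 1.19 with a 95% interval from 1.10 to 1.28, and 0.14 with the length and GC offsets (edgeR FDR adjusted *P* = 0.036). Its promoter window was the one of the 7 without a GC box. Over the 12 libraries, after each line's mean was taken off, *Smo* and *Gli1* had a Pearson correlation of 0.86 and *Gli2* and *Gli3* one of 0.78, as a description of libraries that share line, genotype and depth.

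*Gli3* fell from 163, 164 and 164 CPM in wild-type to 149, 149 and 142 CPM in *Pax3* Sp2H/Sp2H libraries, without overlap. Its log2 fold change was -0.16 (standard error 0.052, edgeR FDR adjusted *P* = 0.0238), a fold of 0.895 with a 95% interval from 0.832 to 0.963. The call was lost with the length and GC offsets (-0.05, edgeR FDR adjusted *P* = 0.495) and without wild-type replicate 3, *Pax3* Sp2H/Sp2H replicate 1 or *Pax3* Sp2H/Sp2H replicate 3 (-0.16, -0.17 and -0.14, edgeR FDR adjusted *P* = 0.06, 0.0622 and 0.135). *Gli2* had 103.8, 102.4 and 93.8 CPM in wild-type and 93.7, 96.1 and 92.4 CPM in mutant libraries, overlapping, with a log2 fold change of -0.09 (95% interval -0.20 to 0.03, edgeR FDR adjusted *P* = 0.281).

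Among the ligands *Shh* had 14.1, 15.7 and 13.5 CPM in wild-type and 16.99, 18.7 and 15.1 CPM in *Pax3* Sp2H/Sp2H libraries, and the groups overlapped through the lowest mutant and the highest wild type. The log2 fold change of 0.23 had a 95% interval from 0.03 to 0.43 (edgeR FDR adjusted *P* = 0.0926), and without wild-type replicate 2 it was 0.30 and passed the threshold at 0.0498. *Ihh* had 1.85, 1.04 and 1.59 CPM in wild-type and 1.88, 2.003 and 2.04 CPM in mutant libraries, on 18 to 48 counts. All mutant libraries were above all wild types, by a narrow gap, and the log2 fold change of 0.38 was not called (95% interval -0.14 to 0.90, edgeR FDR adjusted *P* = 0.296). *Dhh* had 0.634, 1.39 and 0.773 CPM in wild-type and 1.39, 1.68 and 1.48 CPM in mutant libraries, a log2 fold change of 0.74 (95% interval 0.09 to 1.38, edgeR FDR adjusted *P* = 0.0865) that was 1.10 and called without wild-type replicate 2 (edgeR FDR adjusted *P* = 0.0217). Without that library 5 members were called in place of 3. *Rhebl1*, which shares exon bases with *Dhh*, held 201 to 222 counts in mutant and 141 to 176 in wild-type libraries, not scaled to depth. Its part in the *Dhh* values of either line was not tested. In the *Pax3* line wild types, the *Dhh* level was 1.39 and 0.773 CPM with Y-linked counts and 0.634 without. The marked *Pax3* Sp2H/Sp2H library had 1.48 CPM beside 1.39 and 1.68. In the *Carm1* line wild types the marked library had 1.95 CPM beside 1.13 and 2.15. So few libraries in a group cannot show whether *Dhh* goes with Y-linked counts.

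Markers of tissues that make or receive the ligands are given next for this line, and their part in the differences above was not tested. Their counts of calls stand against 24.5% of all genes tested (14% higher and 10.5% lower in *Pax3* Sp2H/Sp2H). Cartilage markers summed to 1385 to 1575 CPM in *Pax3* Sp2H/Sp2H and 1128 to 1387 CPM in wild-type embryos, with 4 of 14 called, all higher (*Col9a1*, *Col9a2*, *Col9a3* and *Col11a2*). Limb bud markers, a tissue in which Gli3 is abundant, summed to 411 to 427 against 357 to 378 CPM with 5 of 13 called, all higher. Notochord and floor plate markers overlapped, at 344 to 366 against 346 to 374 CPM, with 2 of 10 called, 1 in each direction. Schwann cell precursor markers, of the tissue that makes *Dhh*, had 6 of 10 called, 5 lower, among which *Sox10*, the defining factor, fell by 0.89, and summed to 235 to 246 against 242 to 263 CPM. Endothelial markers, of another source of *Dhh*, had 3 of 11 called, all higher, and overlapping sums (390.1 to 433 against 399 to 414 CPM).

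The 58 further pathway genes gave 14 calls in the *Pax3* line, 9 higher and 5 lower, with a median log2 fold change of -0.01. This share, too, is near that of all genes tested in the line (24.5%). Among genes for ligand processing *Notum*, a secreted lipase, rose by 0.55 and *Gpc4* fell by 0.28 on the log2 scale. Of the receptors and co-receptors 5 of 11 were called. *Cdon*, a co-receptor that binds ligand, fell by 0.30 and *Mgrn1*, a ubiquitin ligase that lowers Smo at the cell surface, by 0.18. *Gas1*, a further co-receptor, rose by 0.18 and *Evc* by 0.20, while *Boc* (-0.04) was not called. In the relay 7 of 35 were called, with *Gsk3a*, a kinase that phosphorylates Gli proteins, higher by 0.40, *Arrb2* by 0.40, *Dyrk2* by 0.25 and *Spop* by 0.19, while *Itch*, a ubiquitin ligase, fell by 0.25. *Sufu* had a log2 fold change of 0.04 (edgeR FDR adjusted *P* = 0.738). With the offsets 9 of the 58 were called, without *Pax3* Sp2H/Sp2H replicate 1 also 9, and without replicate 3, 8.

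All 23 targets were tested in this line and 3 were called, a smaller share than the 24.5% of all genes tested, all higher: *Nkx6-1* by 0.37 and *Nkx6-2* by 0.60, which mark ventral progenitors of the neural tube, and *Foxc2*, a factor of paraxial mesoderm, by 0.39 on the log2 scale. The median log2 fold change was 0.12, and *Foxf1* (0.13) and *Foxa2* (0.37) were not called (edgeR FDR adjusted *P* = 0.301 and 0.116). With the length and GC offsets none of the 23 was called, and without wild-type replicate 2 there were 5.

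**Figure D4:**
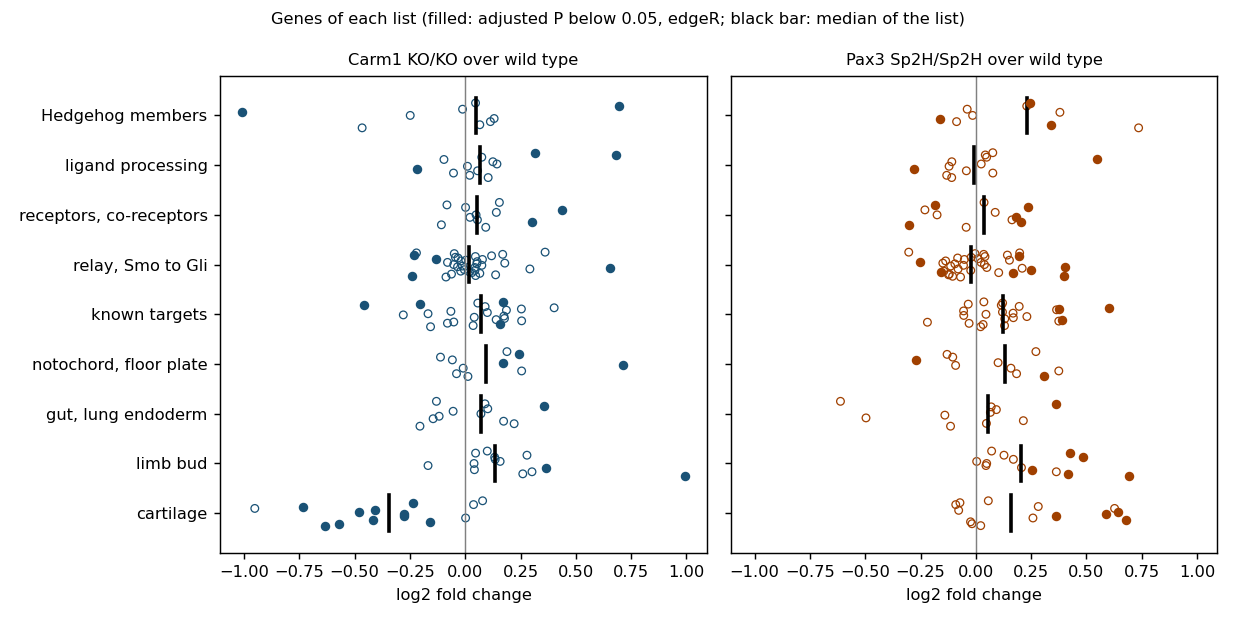
Log2 fold change of each tested gene of the 9 members, 4 pathway lists and 4 tissue marker lists in the *Carm1* line (left) and the *Pax3* line (right), filled where the edgeR FDR adjusted *P* was below 0.05, with a black bar at the median of each list. Cartilage has the lowest median in the *Carm1* line (-0.34) and lies above 0 in the *Pax3* line (0.16), while the pathway lists have medians from -0.02 to 0.12.

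Whether the effect of losing *Carm1* differed from that of losing *Pax3* was tested as a difference of log2 fold changes in one fit of all 12 libraries. It was called for 4 of the 9 members, *Shh*, *Ihh*, *Gli1* and *Gli3*, against 19.1% of 16292 genes tested. *Ihh* differed most, by -1.38 (standard error 0.348, edgeR FDR adjusted *P* = 0.00489), from -1.01 in the *Carm1* line and 0.38 in the *Pax3* line. *Gli3* also went opposite ways, 0.13 and -0.16, with a difference of 0.30 (standard error 0.066, edgeR FDR adjusted *P* = 0.00136). These 2 differences passed the threshold under all 20 alternatives. *Shh* went the same way in both lines, by more in the *Carm1* line (difference 0.48, standard error 0.147, edgeR FDR adjusted *P* = 0.0201), and this passed under 16 of 20 alternatives, lost without *Carm1* KO/KO replicate 2, *Carm1* line wild type 2, *Pax3* line wild type 2 or *Pax3* Sp2H/Sp2H replicate 3 (0.40 to 0.45, edgeR FDR adjusted *P* of 0.0513 to 0.0799). *Gli1* differed by -0.27 (standard error 0.088, edgeR FDR adjusted *P* = 0.0306), and this was lost under 5 of 20, with the offsets at -0.15 and without *Carm1* KO/KO replicate 1, *Carm1* line wild type 1, *Pax3* line wild type 1 or *Pax3* Sp2H/Sp2H replicate 2 at -0.20 to -0.23.

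The remaining members did not pass this test. *Dhh* (-1.19, 95% interval -2.07 to -0.31), *Gli2* (0.21, 0.05 to 0.37) and *Smo* (-0.19, -0.34 to -0.04) lay close to the threshold, at an edgeR FDR adjusted *P* of 0.0511, 0.0521 and 0.0601, and all 3 passed it in a fit with a term for the libraries with Y-linked counts. *Ptch1* (0.04, -0.13 to 0.21) and *Hhip* (-0.22, -0.59 to 0.14) had edgeR FDR adjusted *P* of 0.804 and 0.421. Of the further pathway genes 18 of 58 differed between the lines, and of the targets 2 of 23, against 19.1% of all genes tested. These 2 targets were *Osr2* and *Nkx2-9*. *Nkx2-9* was near 0, with 0, 0 and 2 counts in *Carm1* line wild types and 10, 4 and 4 in *Carm1* KO/KO. It did not pass the filter on low counts in the *Carm1* line alone.

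**Figure D5:**
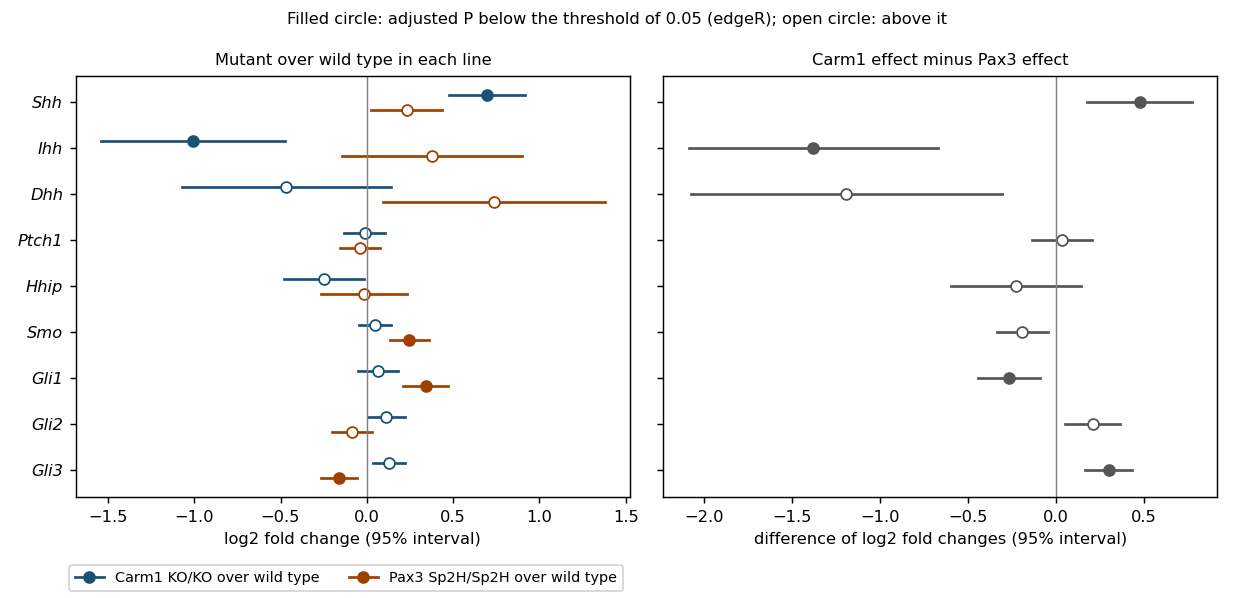
Left, log2 fold change of mutant over wild type with its 95% interval for the 9 genes in each line, and right, the *Carm1* effect minus the *Pax3* effect, with filled circles where the edgeR FDR adjusted *P* was below 0.05. *Ihh* lies at -1.01 in the *Carm1* line and 0.38 in the *Pax3* line, and the intervals of *Ptch1* cross 0 in both panels.

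The wild types of the 2 lines differed from each other in more members than either mutant did from its own wild type, 6 of 9 against 39.4% of 15882 genes tested. Wild types of the *Carm1* line had less *Shh* than those of the *Pax3* line (log2 difference -0.68, edgeR FDR adjusted *P* = 3.23e-05), less *Ptch1* (-0.27, 0.0016), *Smo* (-0.26, 6.67e-04) and *Gli2* (-0.32, 2.99e-04), and more *Ihh* (0.80, 0.014) and *Dhh* (0.99, 0.0214). *Gli1* (-0.17), *Gli3* (-0.11) and *Hhip* (0.19) did not pass, at an edgeR FDR adjusted *P* of 0.0562, 0.117 and 0.206. The call of *Ihh* was lost without *Pax3* line wild type 2 (0.61), and that of *Dhh* without *Carm1* line wild type 2 or 3 or *Pax3* line wild type 1 or 3 (0.78 to 0.91). On the scale common to all libraries, *Shh* in *Carm1* KO/KO embryos, at 5.09 ± 0.268 CPM per kb, lay near the *Pax3* line wild types at 5.01 ± 0.381, and *Ihh*, at 0.426 ± 0.0374, near theirs at 0.485 ± 0.136, a comparison across lines that was not tested. Cartilage markers were higher in the *Carm1* line wild types, with 9 of 14 called higher and 1 lower and a median of 0.82. Of the 12 check genes 9 were also called between these wild types, 8 higher and 1 lower in the *Carm1* line. Their part in the differences above was not tested, and the labels give no stage finer than E12.5. Strain, colony and place of rearing differ together with the line and cannot be told apart.

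The genes whose level over the 12 libraries was most like that of *Shh*, after each line's mean was taken off and among the 14845 genes that averaged 1 CPM or more, were *Cenpt* (Pearson correlation 0.97), *Fuz* (0.97), *Hbb-bh1* (0.96), *BC024139* (0.94) and *Tfap2c* (0.94). For *Gli1* they were *Degs2* (0.98), *1700008J07Rik* (0.97), *Wtip* (0.96), *Bcl2l2* (0.96) and *AI846148* (0.96). Of these, *Fuz* is also among the 5 further pathway genes that rose in *Carm1* KO/KO embryos. These are descriptions, since the 12 libraries share genotype, depth and base composition within groups.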

How the data were processed

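RNA from whole embryos at E12.5 was sequenced as 150 bp read pairs in 12 libraries, 3 per group, with group and replicate number taken from the labels. The authors aligned reads to mm10 (GRCm38) with STAR and counted them per gene with featureCounts, and the deposited values are raw counts without normalization. Tool versions, the strand setting and the handling of multi-mapping reads are not given in the sources used here, so reads shared with overlapping or antisense genes cannot be assigned with certainty. Of 23420 symbols, GENCODE vM21 matched 21777 as written and 1260 through an older symbol, and 383 had no match.

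Here edgeR 4.0.16 (R 4.3.3) was run with filterByExpr, TMM factors and the robust quasi-likelihood test, first in each line alone, then between the wild types, and for the difference of both effects in a fit of all 12 libraries. *P* values were adjusted by Benjamini-Hochberg over all genes tested with a threshold of 0.05, and intervals are at 95%. CPM values use TMM-scaled library sizes. *P* values measure only the spread between libraries, and nothing in the labels ties embryos to litters. With 3 libraries against 3 the smallest *P* that an exact two-sided permutation test can give is 0.1. Tests were checked on simulated counts. Lists and members were chosen with earlier results of these data known. Named are all 9 members, the targeted genes, the called genes with the smallest adjusted *P* of each pathway list (at most 5, mean of at least 1 CPM), *Cdon*, *Boc*, *Gas1*, *Sufu*, *Foxf1* and *Foxa2*, and the 5 genes most like *Shh* and *Gli1*. Single marker genes and *Fuz* levels were picked after values were seen. Some genes that this rule names are not reported here.

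Alternatives were DESeq2 1.42.0 with default settings, RLE and upper-quartile factors, no filter, at least 10 counts in every library, a replicate block, a term for at least 100 Y-linked counts, length and GC offsets (splines with 5 degrees of freedom), one fit of all 12 libraries, and leaving out each library. Reads on single exons and the ENU allele were not analysed here.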

Additional observations from a re-analysis of the deposited data

Results flagged for a closer look

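For 4 members the effect of the *Carm1* mutation differed from that of the *Pax3* mutation by the interaction term of edgeR's quasi-likelihood test in a fit of all 12 libraries. The *Carm1* effect minus the *Pax3* effect was -1.38 for *Ihh*, 0.30 for *Gli3*, 0.48 for *Shh* and -0.27 for *Gli1* on the log2 scale (edgeR FDR adjusted *P* = 0.00489, 0.00136, 0.0201 and 0.0306). For *Ihh* all 3 *Carm1* KO/KO libraries were below and all 3 *Pax3* Sp2H/Sp2H libraries above their own wild types, and for *Gli3* the reverse held. The 2 lines differ in strain and colony as well as in the mutated gene, and these cannot be told apart in the difference.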

How the results depend on the processing

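Of 585 recomputed values of single members, 524 kept their direction and their side of the threshold, 18 lost the call, 31 gained one and 12 changed sign, all 12 among values that were not called. In the *Carm1* line *Shh* lay between 0.66 and 0.77 and *Ihh* between -1.08 and -0.95 under 15 alternatives each, and both passed the threshold in every one. *Gli1* (0.22 to 0.40) and *Smo* (0.14 to 0.29) did so in the *Pax3* line. With the length and GC offsets, 4 members were called in the *Carm1* line, 14 further pathway genes in the *Carm1* line and 9 in the *Pax3* line, and 0 targets in the *Pax3* line, and signs turned for *Ptch1* in the *Carm1* line (0.0284), in the *Pax3* line (0.0786) and in the difference between lines (-0.0508), and for *Hhip* in the *Pax3* line (0.16). The term for Y-linked counts gave 7 members in the difference between lines, and no filter gave 5 targets in the *Pax3* line. The cause of these shifts was not tested.

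Leaving out 1 library at a time gave 2 to 4 called members in the *Carm1* line, 2 to 5 in the *Pax3* line, 3 to 6 in the difference between lines and 5 to 7 between the wild types. It gave 6 to 12 and 8 to 16 further pathway genes and 1 to 5 and 2 to 5 targets in the *Carm1* and *Pax3* lines. Values that turned sign were *Ptch1* (-0.0652 to 0.0589) and *Smo* (-0.0101 to 0.0786) in the *Carm1* line, *Hhip* in the *Pax3* line (-0.10 to 0.11) and *Ptch1* in the difference between lines (-0.0171 to 0.109).

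Replicate numbers did not pair the samples in the *Carm1* line, where correlations of same-numbered deviations ran from -0.0534 to -0.00163. In the *Pax3* line mutant replicates 1 and 3 were most like the wild type of the same number (0.17 and 0.252). Replicate 2 was not (-0.0793), and the labels state no pairing. With a replicate block 5 targets were called in the *Pax3* line in place of 3, and the other counts stayed within 1.5 times. Over all genes the block gave 1787 calls in the *Carm1* line and 4177 in the *Pax3* line. DESeq2 called 1541 and 3402 genes. Between the wild types, 3287 of 6250 calls were higher, 3807 of 5906 with upper-quartile factors and 2762 of 7535 with the offsets. *Ihh* and *Dhh*, at 13 to 55 counts per library, are limited by depth.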
